A study of Mus musculus with 7 samples.

Results

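Described here are 10 genes of fibroblast matrix and contraction, listed by name: Dcn, Lum and Bgn, Postn, Fn1, Sparc and Fbn1, Thy1, and Acta2 and Tagln. Of these, 9 were measured, among 18194 genes in all, and Fbn1 (fibrillin 1) was not analysed here because no probe set carries its symbol alone in the annotation used. RNA was hybridized to 1 Affymetrix mouse expression array for each of 7 samples. The cultures were SK7 ES cells, kept undifferentiated, and 3 layers made from them in culture, namely ectoderm, endoderm and paraxial mesoderm. SK7 is a male mouse ES cell line that carries a GFP reporter driven by the Pdx1 promoter, so all 4 cultures share this transgene and the derived layers rest on 1 line. Brain, liver and skeletal muscle were taken from male ICR mice more than 9 weeks old, the number of animals behind each array not being given. Neither the labels nor the methods of the study give the differentiation steps, or say whether feeder cells were removed or the derived cells sorted before RNA was isolated.

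Fibroblasts and other mesenchymal cells secrete a matrix of collagen fibres, to whose surface small leucine-rich proteoglycans bind and which is linked to the cells through fibronectin and integrins. When such cells become contractile, as myofibroblasts or smooth muscle cells, they also make the actin of smooth muscle and the proteins that bind to it. These genes are low in most epithelial and neural cells, although several have other known sources, such as hepatocytes for fibronectin and neurons for Thy1.

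Each gene is given as the deposited signal of its brightest probe set, a linear intensity with no unit, and levels are compared between arrays and not between genes. Signals of 50 or less count here as background. Between a pair of arrays, calls required a brighter signal over 50 and a ratio of 2 or more, with a dimmer signal under 50 raised to 50. The ratio is then a lower bound, written here as "at least". With 1 array per condition no test was possible, and differences are described by size alone. In whole cultures and tissues, fewer cells of a type and less RNA per cell cannot be told apart.

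The arrays carried most of the markers of their labels, with paraxial mesoderm as the exception. All 6 ES cell markers were called lower in each derived layer, and all 5 definitive endoderm markers were called higher in endoderm. Of 6 neural ectoderm markers, 5 were above background in ectoderm and 3 were called higher there than in ES cells. Fabp7 of neural progenitors was 2986 and Zic1 of the dorsal neural tube was 2888.5, whereas Pax6 was 30.5, and Sox2 was 2369 against 3030 in ES cells. In paraxial mesoderm, 2 of 6 markers of that tissue were above background, Pdgfra at 1062 and Pax3 at 56.6, and the early paraxial factors Tbx6 and Msgn1 were 17.7 and 2.7. Also above background were 2 of the 6 in ES cells and 2 in ectoderm. In paraxial mesoderm 1 was called higher and 1 lower than in ES cells (6.75% and 4.55% of all genes). Against ectoderm 1 was higher and 2 were lower there (3.68% and 2.67%). Xist, which coats the silenced X of female cells, was 120.9 in ES cells, 80 in ectoderm, 64.1 in endoderm and 209.2 in paraxial mesoderm, against 11.4 to 17.4 in the adult male tissues. The Y-linked gene Eif2s3y was 551.1, 238.1, 525.2 and 296.7 in the same cultures. Xist was thus above background in all 4 cultures of a line labelled male, and highest in the culture in which most of the genes described here were highest. What part this has in their signals was not tested.

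Most of the matrix and contractile genes were higher in paraxial mesoderm than in ES cells, and few were in the other layers. Of the 9 measured genes, 7 were called higher in paraxial mesoderm than in ES cells and 0 lower, where 6.75% of all genes were called higher and 4.55% lower. In ectoderm 2 were called higher, Dcn and Bgn, and 0 lower, with 6.63% and 4.89% of all genes. In endoderm 1 was called higher, Dcn, and 2 lower, Acta2 and Tagln, with 4.89% and 3.81% of all genes. The median log2 ratio over the 9 genes was 1.68 in paraxial mesoderm and 0 in both ectoderm and endoderm. Genes with both signals under background have a log2 ratio of 0 by rule, here 2 of the 9 in paraxial mesoderm and 3 each in ectoderm and endoderm. Over all genes the median was 0 in each comparison, which for the same reason is no baseline. Over genes above background in either array, with signals raised only to 1, it was 0.04, 0.06 and 0 in paraxial mesoderm, ectoderm and endoderm. These 3 comparisons share the ES cell array, so their counts are not independent of each other. Lum and Thy1 were under background in every culture.

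The layers were also set against each other. Paraxial mesoderm was called higher than ectoderm for 6 of the 9 genes (3.68% of all genes) and higher than endoderm for 7 (3.91%), with 0 called lower in either case (2.67% and 2.56%). Ectoderm was called higher than endoderm for 3, Dcn, Acta2 and Tagln (3.9%), and lower for 0 (3.67%). Higher than in both other layers were 6, Bgn, Postn, Fn1, Sparc, Acta2 and Tagln, where 2.07% of all genes were. In ectoderm 0 were higher than in both other layers, as were 1.82% of all genes. Dcn, Acta2 and Tagln were called lower in endoderm than in both other layers, as were 1.33% of all genes. Among the 4 cultures, the highest signal was in paraxial mesoderm for 7 of the 9 genes, a place held by 12.7% of all genes.

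**Figure D1:**
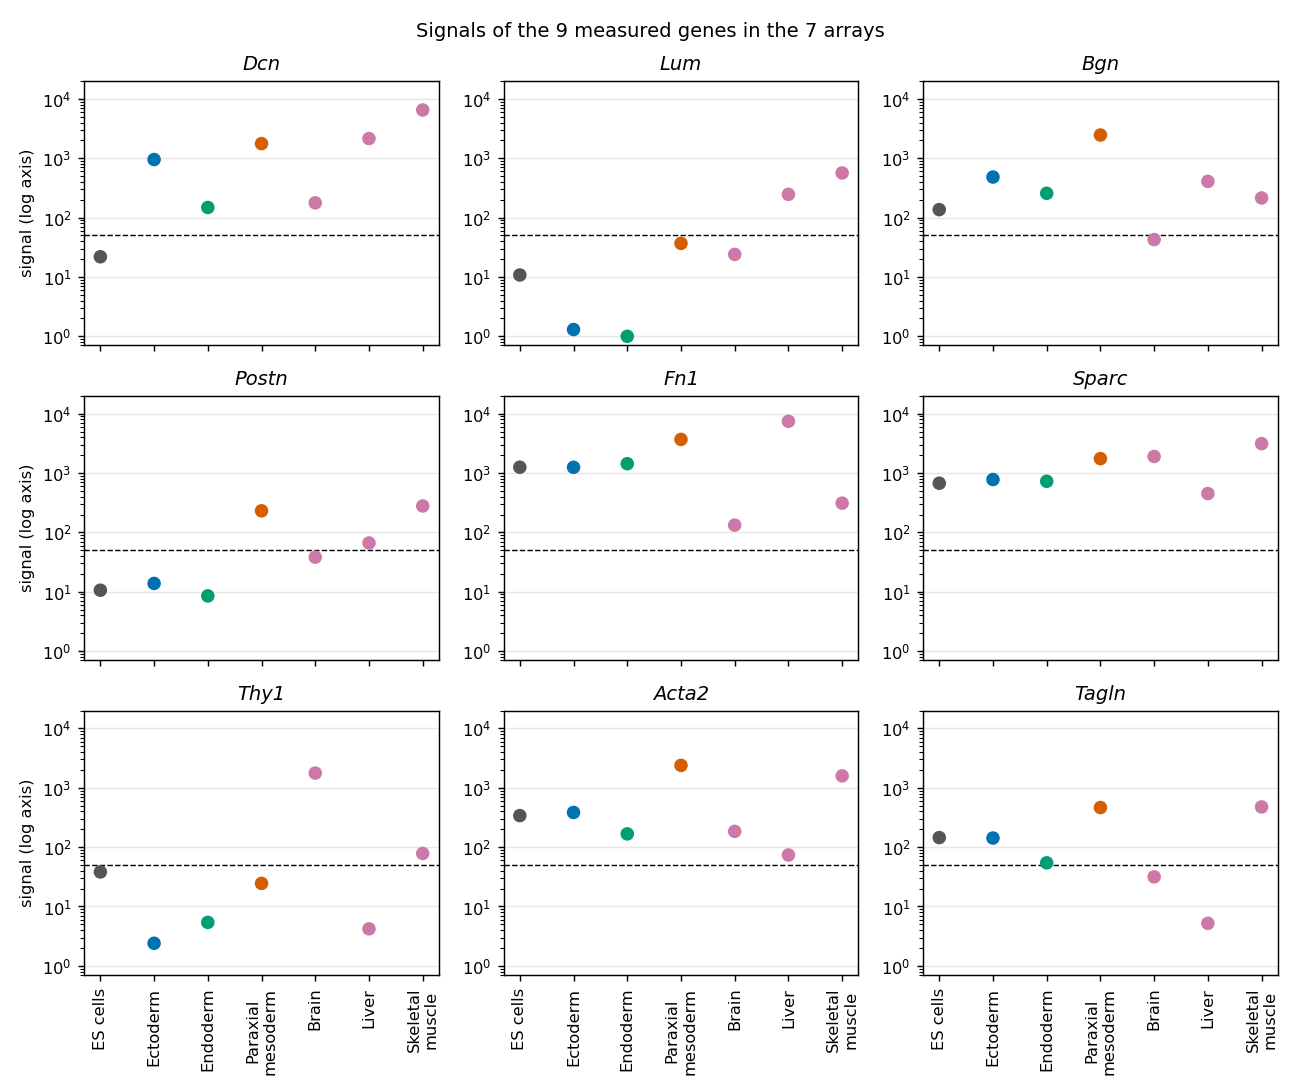
Signals of the 9 measured genes in the 7 arrays, 1 point for each, on a log axis where signals below 1 sit at 1, the adult tissues in pink and the background of 50 as a dashed line. Paraxial mesoderm lies highest of the 4 cultures for 7 genes, among them Bgn at 2464 and Acta2 at 2383, whereas Lum and Thy1 lie under background in all 4.

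The start regions of some of the genes are shown first, since Acta2 and Bgn were the genes brightest in paraxial mesoderm of all 7 arrays and Postn was above background in that culture alone among the 4. RefSeq promoters of GRCm38.p6 were at hand for 5 of the 10 genes, and each window runs from 250 bases before the transcript start to 50 after it. Also shown is Myl9, the myosin light chain of smooth muscle, as a contractile gene outside the list. Acta2 lies at chr19:34255324-34255623 on the minus strand, Myl9 at chr2:156775214-156775513, Bgn at chrX:73483351-73483650 and Postn at chr3:54360857-54361156, the last 3 on the plus strand. Postn has an entry for a further start. Capitals mark matches on either strand to the TATA box TATAAA, to the GC box GGGCGG, to the M-CAT motif GGAATG of the Tead factors and to the CArG box, the site of serum response factor, with up to 1 base changed.
Acta2: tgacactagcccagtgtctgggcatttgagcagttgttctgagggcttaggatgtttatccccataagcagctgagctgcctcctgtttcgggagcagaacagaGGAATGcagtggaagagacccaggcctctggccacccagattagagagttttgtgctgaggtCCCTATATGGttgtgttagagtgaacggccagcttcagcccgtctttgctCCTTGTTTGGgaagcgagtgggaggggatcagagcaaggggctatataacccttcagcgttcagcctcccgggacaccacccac
Myl9: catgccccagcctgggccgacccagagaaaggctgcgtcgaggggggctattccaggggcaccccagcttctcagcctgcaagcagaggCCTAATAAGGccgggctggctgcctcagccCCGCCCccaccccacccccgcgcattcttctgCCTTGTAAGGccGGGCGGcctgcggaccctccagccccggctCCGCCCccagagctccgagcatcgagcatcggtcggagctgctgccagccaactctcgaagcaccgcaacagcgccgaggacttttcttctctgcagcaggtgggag
Bgn: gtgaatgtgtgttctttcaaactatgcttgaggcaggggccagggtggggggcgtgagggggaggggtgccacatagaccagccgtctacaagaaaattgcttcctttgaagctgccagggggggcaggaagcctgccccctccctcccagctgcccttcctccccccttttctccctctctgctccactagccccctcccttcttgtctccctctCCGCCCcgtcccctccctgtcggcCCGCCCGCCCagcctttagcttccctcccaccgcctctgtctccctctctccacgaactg
Postn: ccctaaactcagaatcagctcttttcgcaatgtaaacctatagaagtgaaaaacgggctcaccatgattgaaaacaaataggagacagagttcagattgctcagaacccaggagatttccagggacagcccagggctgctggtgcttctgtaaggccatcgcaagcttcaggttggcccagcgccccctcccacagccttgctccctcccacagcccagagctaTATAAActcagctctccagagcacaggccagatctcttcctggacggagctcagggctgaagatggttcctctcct
The Acta2 window held 2 CArG boxes with 1 base changed, CCCTATATGG and CCTTGTTTGG, starting 84 and 34 bases before the transcript start, and 1 M-CAT motif. Myl9 held 1 unchanged CArG box, CCTAATAAGG, and 1 with a base changed. Of the 32851 promoter windows in the table, 1.63% held an unchanged CArG box and 21.1% 1 with up to 1 base changed. Bgn held 3 GC boxes, of which 2 overlapped, a motif found in 35.7% of the windows, and Postn held 1 TATA box, found in 13.6%. The M-CAT motif was found in 14.7%. Of the windows not printed, those of Sparc and of the further Postn start held 0 matches to any of these motifs. The Fbn1 window held 1 GC box. Except for the CArG box only these exact letters were sought, so variants such as tatataa in the Acta2 window are not marked. A match describes these letters and does not show that a factor binds there.

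The small leucine-rich proteoglycans differed in where they were high. Decorin, the product of Dcn, binds collagen fibrils and sets their spacing. Its gene had a signal of 21.9 in ES cells, 951.1 in ectoderm, 148.1 in endoderm, 1766 in paraxial mesoderm, 177.3 in brain, 2149 in liver and 6504 in skeletal muscle. ES cells were thus the 1 array under background, and ectoderm and paraxial mesoderm lay closer to each other than to any other culture. The ratio to ES cells was at least 35.3 in paraxial mesoderm, at least 19.0 in ectoderm and at least 2.96 in endoderm. Paraxial mesoderm was 1.86 times ectoderm, under the 2-fold rule, and 11.9 times endoderm. Skeletal muscle was the highest array, at 3.03 times liver. A second probe set of Dcn was at most 26.2 in all arrays. With the geometric mean of both, the ES cell signal was again under background and raised to it. The ratio to ES cells was then at least 2.63 in paraxial mesoderm. The calls were lost in ectoderm, at a ratio of at least 1.69, and in endoderm, with both signals under background. As lower bounds, these values do not show that the difference was smaller.

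Biglycan, the product of Bgn, is the proteoglycan closest to decorin. Its signal was 136.3 in ES cells, 482.4 in ectoderm, 256.7 in endoderm, 2464 in paraxial mesoderm, 42.6 in brain, 407.6 in liver and 214.1 in skeletal muscle. Paraxial mesoderm stood apart from the other 6 arrays, at 5.11 times the next, ectoderm, and 11.5 times skeletal muscle. Against ES cells the ratio was 18.1 in paraxial mesoderm, 3.54 in ectoderm and 1.88 in endoderm. Bgn therefore had an order unlike that of Dcn, which was 3.68 times higher in skeletal muscle than in paraxial mesoderm. All 3 probe sets of Bgn were highest in paraxial mesoderm, and their ratios to ES cells there were 18.1, 39.8 and 17.0.

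Lumican, encoded by Lum, regulates collagen fibril width in cornea, skin and tendon. Its signal was 10.8 in ES cells, 1.3 in ectoderm, 0.8 in endoderm, 36.8 in paraxial mesoderm, 24.0 in brain, 246.7 in liver and 565.1 in skeletal muscle. It was above background in liver and skeletal muscle only, and skeletal muscle was 2.29 times liver. Of 12 other measured genes of this proteoglycan family, 8 were above background in skeletal muscle, and 1 each in ectoderm, paraxial mesoderm, brain and liver. The gene above background in ectoderm and paraxial mesoderm was in both cases Ogn, which encodes osteoglycin, at 298.4 and 468.8 against 13.0 in ES cells, ratios of at least 5.97 and 9.38. Fmod, Aspn and Kera, which encode fibromodulin, asporin and keratocan, were between 510.8 and 593.4 in skeletal muscle and at most 34.0 in any other array.

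All 3 measured matrix glycoprotein genes were called higher in paraxial mesoderm than in ES cells. Fibronectin, encoded by Fn1, is assembled into fibrils by integrins and also circulates in plasma. Its signal was 1252 in ES cells, 1248 in ectoderm, 1435 in endoderm, 3686 in paraxial mesoderm, 132.6 in brain, 7441 in liver and 310.9 in skeletal muscle. The ES cell, ectoderm and endoderm arrays were level, at ratios of 0.997 and 1.15 to ES cells, and paraxial mesoderm was 2.94 times ES cells. Liver was 2.02 times paraxial mesoderm, and the hepatocyte genes Alb and Apoa1 were 11977 and 12693 there against at most 9.8 in the cultures. A second probe set of Fn1 gave 236.5, 148.4, 171.6 and 526.7 in ES cells, ectoderm, endoderm and paraxial mesoderm, a ratio of 2.23 in paraxial mesoderm.

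Sparc encodes osteonectin, a collagen-binding protein of bone, basement membrane and many matrices. Its signal was 673.2 in ES cells, 776.7 in ectoderm, 725.6 in endoderm, 1746.5 in paraxial mesoderm, 1898 in brain, 450.7 in liver and 3129 in skeletal muscle. It was above background in all 7 arrays, and skeletal muscle, the highest, was 6.94 times liver, the lowest. Paraxial mesoderm was 2.59 times ES cells, 2.25 times ectoderm and 2.41 times endoderm, and brain was 1.09 times paraxial mesoderm. A second probe set gave 399.0 in ES cells and 1163 in paraxial mesoderm, a ratio of 2.91.

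Periostin, encoded by Postn, is a matrix protein of periosteum, periodontal ligament and healing wounds. Its signal was 10.6 in ES cells, 13.8 in ectoderm, 8.5 in endoderm, 230.9 in paraxial mesoderm, 38.2 in brain, 66.3 in liver and 278.5 in skeletal muscle. Paraxial mesoderm was at least 4.62 times each of the other cultures, none of which was above background. Skeletal muscle and paraxial mesoderm were close, at a ratio of 1.21. Postn differed in this from Dcn and Bgn, which were also called higher in ectoderm than in ES cells.

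Thy1, a surface protein used to mark fibroblasts and also abundant on neurons and T cells, did not follow the matrix genes. Its signal was 38.2 in ES cells, 2.4 in ectoderm, 5.4 in endoderm, 24.5 in paraxial mesoderm, 1771 in brain, 4.2 in liver and 78.3 in skeletal muscle. It was thus under background in each culture and 22.6 times higher in brain than in skeletal muscle, the next array. All 7 neuron markers were above background in brain, among them Snap25 at 4950, and of 4 measured blood cell markers 1 was, Tyrobp of microglia and other myeloid cells at 207.3, with Ptprc and the T cell gene Cd3e at 39.2 and 7.0. In ectoderm, 5 of the 7 neuron markers were above background, with Snap25 at 57.0, and Thy1 was not.

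Both contractile genes were higher in paraxial mesoderm and lower in endoderm than in ES cells. Acta2 encodes the smooth muscle form of alpha actin. Its signal was 339.8 in ES cells, 384.0 in ectoderm, 167.2 in endoderm, 2383 in paraxial mesoderm, 184.5 in brain, 73.7 in liver and 1587 in skeletal muscle. Paraxial mesoderm was the highest array, at 7.01 times ES cells, 6.21 times ectoderm, 14.3 times endoderm, and skeletal muscle was at 0.666 of it. Endoderm was lower than ES cells, which were 2.03 times brighter. The probe set is marked as matching more than 1 transcript. The other 2 probe sets of Acta2 were under background in all arrays and also highest in paraxial mesoderm, at 37.3 and 21.0, so the size of the difference rests on the shared probe set. Without it Acta2 had no call in any layer. With the geometric mean of the 3, the ES cell signal fell under background and was raised to it. The ratio of paraxial mesoderm to ES cells was then at least 2.46, a lower bound that does not show a smaller difference. The skeletal form Acta1 was 15697 in skeletal muscle and 9.9 in paraxial mesoderm, the cardiac form Actc1 was 142.3 and the enteric form Actg2 was 19.1 in paraxial mesoderm. In skeletal muscle Actc1 was 1757, and whether Acta1 or Actc1 transcripts add to the Acta2 signal there was not tested.

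Tagln encodes transgelin, an actin-binding protein of smooth muscle. Its signal was 144.9 in ES cells, 142.4 in ectoderm, 54.4 in endoderm, 464.5 in paraxial mesoderm, 31.6 in brain, 5.2 in liver and 475.7 in skeletal muscle. Paraxial mesoderm and skeletal muscle were level, at a ratio of 1.02, and above the other arrays. Paraxial mesoderm was 3.21 times ES cells, 3.26 times ectoderm and 8.54 times endoderm. ES cells were 2.66 times endoderm, whose signal lay just above background. Its probe set is not marked as shared, and its order over the arrays was close to that of Acta2, with a Pearson correlation of 0.964 between log2 signals over the 7 arrays. The genes most like Acta2 by this measure were Tagln, Ahnak at 0.961 and Anxa3 at 0.938, and those most like Tagln were Col1a2 at 0.973, Acta2 and Emp1 at 0.955. The points are single arrays and 6213 genes were compared, so these values are a description.

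**Figure D2:**
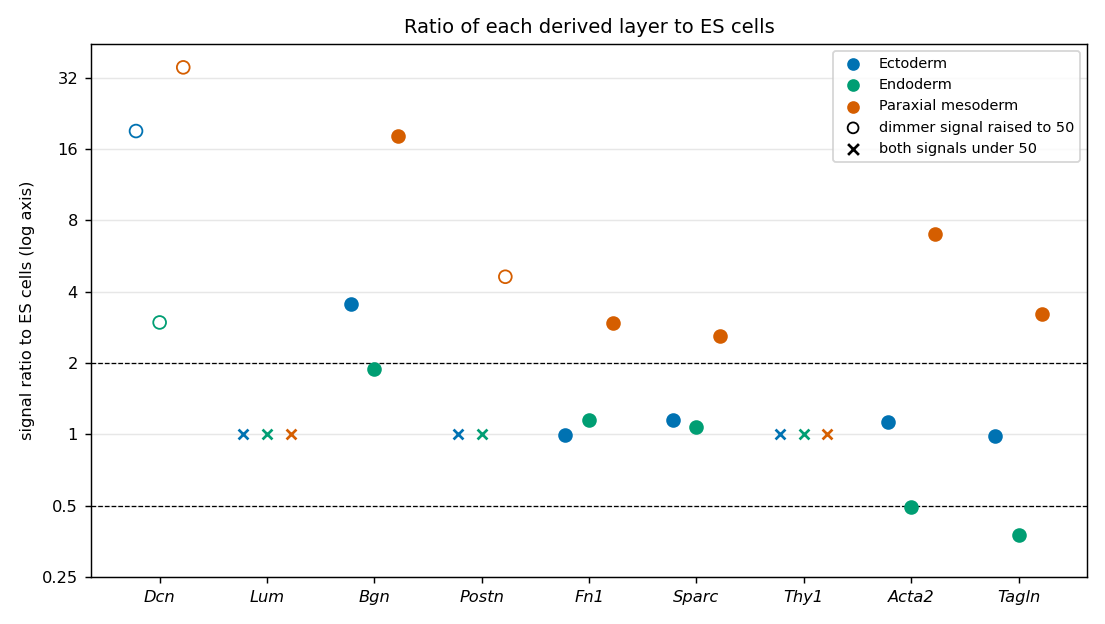
Ratio of the signal in each derived layer to that in ES cells (log axis) for the 9 genes, with 1 array for each layer and dashed lines at the 2-fold rule. Open circles are lower bounds, with the ES cell signal raised to 50, and crosses mark genes with both signals under 50. Dcn reaches at least 35.3 and Bgn 18.1 in paraxial mesoderm, and Acta2 and Tagln lie below the lower line in endoderm.

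Other genes of smooth muscle contraction followed Acta2 and Tagln only in part. Of 20 such genes, 8 were called higher in paraxial mesoderm than in ES cells, 2 in ectoderm and 6 in endoderm, and 0, 2 and 0 were called lower. Of all genes, 6.75%, 6.63% and 4.89% were called higher in these layers and 4.55%, 4.89% and 3.81% lower. In ectoderm both counts were close to these shares. In paraxial mesoderm the largest ratios were those of Csrp1, a LIM domain protein of smooth muscle, at 7.65, Cald1, which encodes caldesmon, at 6.83, Tpm1, which encodes a tropomyosin, at 6.56 and the calponin gene Cnn2 at 3.82. Myl9 was 169.6 in paraxial mesoderm and 77.0 in ES cells, a ratio of 2.20. In endoderm, where Acta2 and Tagln were lower than in ES cells, Cnn2 was 3.73 times, Tpm1 4.16 times and Csrp1 3.57 times ES cells.

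Several genes of mature smooth muscle, named with their values known, were under background in the cultures. In paraxial mesoderm Myh11, the smooth muscle myosin heavy chain, was 7.7, Cnn1 was 21.4, Lmod1 was 1.3, Synpo2 was 8.5 and Des, which encodes desmin, was 36.3. None of these 5 was above background in any of the 4 cultures. Smtn, which encodes smoothelin, was 63.1 in paraxial mesoderm and 55.9 in endoderm, and Mylk, the myosin light chain kinase gene, was 151.1 in ectoderm and 98.2 in paraxial mesoderm. Of 7 markers of pericytes and mature smooth muscle, 2 were called higher in paraxial mesoderm than in ES cells (6.75% of all genes). These were Rgs5 at 1351 against 7.3, and Notch3 at 300.3 against 120.6. Rgs5, a pericyte gene, was at most 20.5 in the other cultures, and the pericyte genes Kcnj8 and Abcc9 were 1.5 and 0.4 in paraxial mesoderm. Their part in the Acta2 and Tagln signals was not tested.

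**Figure D3:**
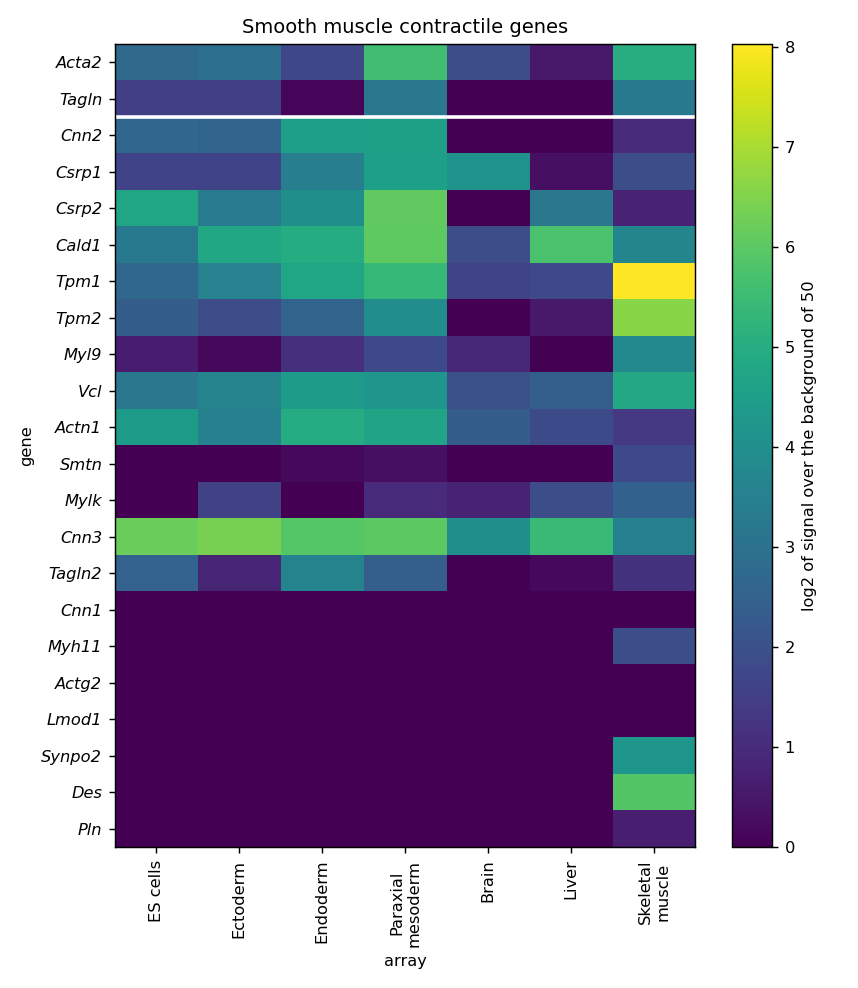
Signals of Acta2, Tagln and 20 further genes of smooth muscle contraction (lines) in the 7 arrays (columns, 1 array each), coloured by log2 of the signal over the background of 50, with signals under 50 drawn as 0. Acta2 and Tagln, above the white line, are bright in paraxial mesoderm and skeletal muscle, and Cnn1, Myh11, Actg2, Lmod1, Synpo2, Des and Pln are at 0 in all 4 cultures.

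Of 13 measured genes that regulate contractile genes, 7 were called higher than in ES cells in paraxial mesoderm and 6 each in ectoderm and endoderm, with 0 lower. The shares of all genes called higher were 6.75%, 6.63% and 4.89%. The growth factor gene Tgfb2 was 724.9 in paraxial mesoderm, 108.0 in ectoderm, 168.7 in endoderm and 8.3 in ES cells, a ratio of at least 14.5 in paraxial mesoderm. Tgfb1 was 207.8 in paraxial mesoderm and 236.1 in endoderm, against 8.4 in ectoderm. The receptor gene Tgfbr2 was at least 5.92 times higher in paraxial mesoderm, and Tgfbr1 was 3.64 times higher there and 6.44 times in ectoderm. Srf, the factor of the CArG box, was 100.9 in ES cells, 212.6 in ectoderm, 249.0 in endoderm and 312.6 in paraxial mesoderm. Myocd, its coactivator in heart and smooth muscle, was singled out once its signals were known and was 281.0 in endoderm and at most 22.2 elsewhere, so that it was highest in the culture in which Acta2 was lowest of the 4.

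Most collagen genes were called higher in paraxial mesoderm and in ectoderm, where only Dcn and Bgn were among the measured genes listed at the start. Of 10 collagen genes, of types I, III, V, VI, XII and XIV, 7 were called higher in paraxial mesoderm than in ES cells, 6 in ectoderm and 1 in endoderm. In any layer 0 were lower, and of all genes 6.75%, 6.63% and 4.89% were called higher. The median log2 ratio was 3.37 in paraxial mesoderm and 1.46 in ectoderm. Col1a1, a chain of type I collagen, was 57.7 in ES cells, 141.6 in ectoderm, 15.7 in endoderm and 1204 in paraxial mesoderm, ratios of 20.9 in paraxial mesoderm and 2.45 in ectoderm. Col6a1, a chain of type VI collagen, was 58.7, 292.9, 153.5 and 1267 in the same arrays, and Col3a1 and Col6a2 were 11.2 and 13.1 times ES cells in paraxial mesoderm. Of 13 genes of collagen modification and processing, 4 were called higher in paraxial mesoderm, among them the collagen chaperone gene Serpinh1 at a ratio of 3.76 and the prolyl hydroxylase gene P4ha2 at 3.44. In ectoderm 0 of these were higher (6.63% of all genes) and 2 were lower (4.89%).

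**Figure D4:**
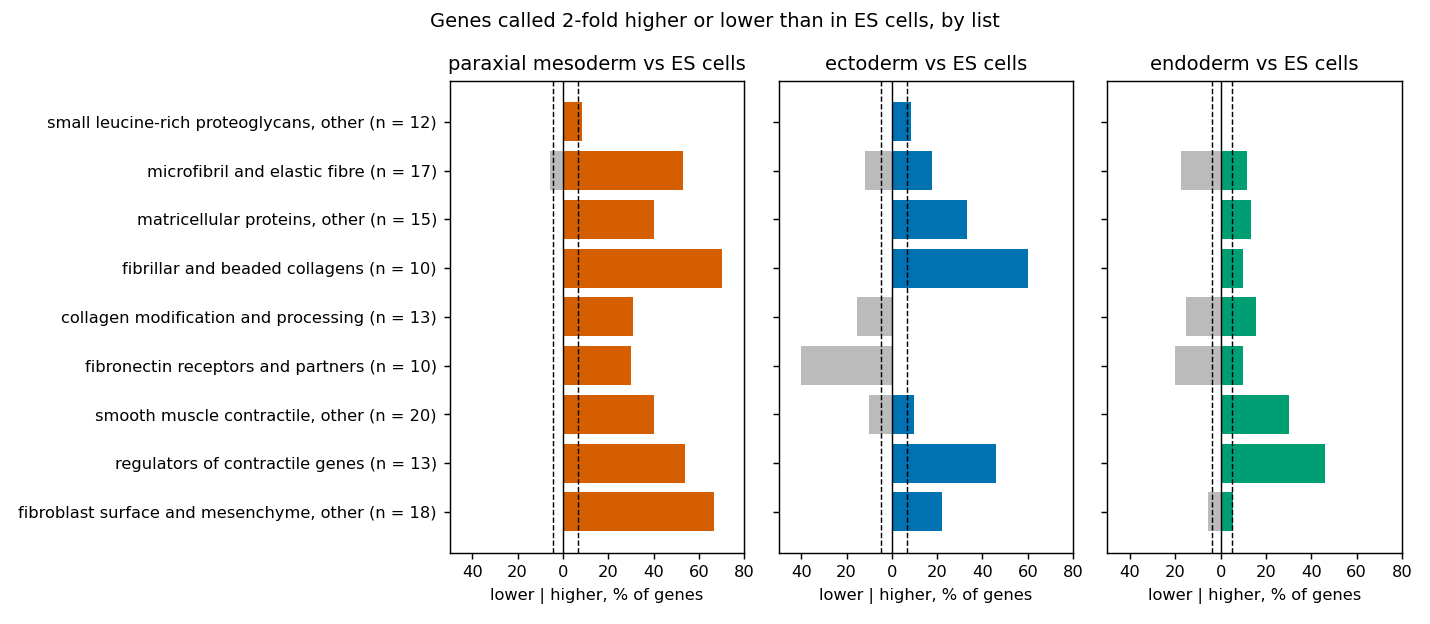
Share of the measured genes of 9 lists called 2-fold higher (coloured bars, right) or lower (grey bars, left) than in ES cells in each derived layer, 1 array each, with the number of genes in brackets and dashed lines at the shares of all genes. The collagens reach 7 of 10 in paraxial mesoderm and 6 of 10 in ectoderm, and the fibroblast and mesenchyme genes 12 of 18 in paraxial mesoderm.

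Genes of microfibrils and elastic fibres, the structures to which fibrillin belongs, were higher mainly in paraxial mesoderm. Of 17 measured, 9 were called higher there than in ES cells and 1 lower, against 3 and 2 in ectoderm and 2 and 3 in endoderm. Of all genes, 6.75% were higher and 4.55% lower in paraxial mesoderm, 6.63% and 4.89% in ectoderm, and 4.89% and 3.81% in endoderm. The largest ratios were those of Ltbp3, which binds latent TGF-beta, at 5.54, the fibulin gene Fbln2 at 5.05, the lysyl oxidase gene Loxl1 at 4.60 and Ltbp1 at least 4.10. Ltbp4 went the other way and was 223.8 in ES cells and 50.6 to 63.4 in the layers. Fbn2, the paralog of Fbn1, was 11.3 in ES cells, 107.2 in ectoderm, 105.6 in endoderm and 135.0 in paraxial mesoderm, called higher in each layer.

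Of 15 further genes of matricellular proteins and matrix proteoglycans, 6 were called higher in paraxial mesoderm, 5 in ectoderm and 2 in endoderm, with 0 lower. The shares of all genes called higher were 6.75%, 6.63% and 4.89%. Ccn1 was 62.4 in ES cells and 563.3, 797.7 and 839.4 in ectoderm, endoderm and paraxial mesoderm. The versican gene Vcan was 7.66 times ES cells in paraxial mesoderm and 3.63 times in ectoderm, and the thrombospondin gene Thbs1 was 6.66 times and 2.10 times. Ccn2, a connective tissue growth factor, was highest of the cultures in ectoderm, at 532.9 against 173.9 in paraxial mesoderm. The relative of Sparc, Sparcl1, was 3215 in brain and 1062 in skeletal muscle and under background in each culture. Of 10 fibronectin receptors and partners, 3 were called higher in paraxial mesoderm (6.75% of all genes), the integrin genes Itgb1 at 2.67, Itgav at 2.41 and Itgb5 at 2.20. In ectoderm 4 were lower (4.89%) and 0 higher (6.63%).

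Of 18 further genes of fibroblasts and mesenchyme, 12 were called higher in paraxial mesoderm than in ES cells, 4 in ectoderm and 1 in endoderm. Of all genes, 6.75%, 6.63% and 4.89% were. In paraxial mesoderm Pdgfra and Pdgfrb, receptors of platelet-derived growth factor, were 14.0 and at least 8.47 times ES cells, Cd44, a receptor of hyaluronan, 10.1 times and the glypican gene Gpc3 17.7 times. Ectoderm had 42.5 for Pdgfra and 24.6 for Pdgfrb, both under background, although Dcn was 951.1 and Col3a1 349.0 there. These 2 receptor genes do not stand for the list, of which 9 of 18 were above background in ectoderm. In ES cells 8 were and in paraxial mesoderm 15, and in ectoderm 0 were called lower than in ES cells.

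Markers of other cell types were read beside these values. Of all genes, 6.75% were called higher and 4.55% lower in paraxial mesoderm than in ES cells. In ectoderm these shares were 6.63% and 4.89%, and in endoderm 4.89% and 3.81%. Of 7 endothelial markers, 0 were called higher in paraxial mesoderm or ectoderm than in ES cells, and in paraxial mesoderm Tek and Kdr were 95.3 and 66.7 whereas Cdh5 and Cldn5 were 1.5 and 13.9. None of 4 measured blood cell markers was above background in any culture. Of 8 measured markers of mesothelium and urogenital ridge, Upk3b and Msln were above background in paraxial mesoderm, at 78.7 and 93.3, and 3 were in ectoderm, but 0 were called higher than in ES cells in either. In endoderm 1 was called higher, Lhx1 at 2068. Upk3b was 52.0 and Msln 79.2 in ectoderm, against at most 1.6 and 14.7 in ES cells and endoderm, and Wt1 was 45.5 in paraxial mesoderm. Of 6 markers of parietal endoderm, a cell type rich in basement membrane transcripts, 2 were called higher and 1 lower than in ES cells in paraxial mesoderm, 1 higher and 3 lower in ectoderm, and 2 higher and 1 lower in endoderm. In paraxial mesoderm these were Plat at 329.6 against 32.3, Col4a1 at 575.1 against 263.3 and, lower, Srgn at 12.0 against 233.4. Of 4 measured neural crest markers, Tfap2a was called higher in ectoderm, at 210.1 against 9.9 in ES cells, and Ets1 in paraxial mesoderm, at 207.6 against 22.1, whereas Sox10 was at most 43.9 in any array. What part any such cells have in the Dcn and Bgn signals of ectoderm and paraxial mesoderm was not tested.

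The ES cell array itself held some of these transcripts. Bgn, Fn1, Sparc, Acta2 and Tagln were above background there, 5 of the 9 genes where 44.4% of all genes were. In ectoderm and endoderm 6 were, with Dcn added (47.2% and 45.5% of all genes), and 7 in paraxial mesoderm (47.4%).

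Among the adult tissues, skeletal muscle had the most of these genes above background. All 9 were above background there, against 7 in liver and 5 in brain, where 43.3%, 42.9% and 49.9% of all genes were. Of the 7 arrays, the highest signal was in skeletal muscle for 5 genes, Dcn, Lum, Postn, Sparc and Tagln (12.4% of all genes), in paraxial mesoderm for 2, Bgn and Acta2 (5.65%), in liver for Fn1 (11.7%) and in brain for Thy1 (14.8%). Against ES cells, skeletal muscle was called higher for 6 of the 9 genes (12.7% of all genes) and lower for Fn1 (15.2%), liver higher for 4 (12.2%) and lower for 2 (16%), and brain higher for 3 (14.9%) and lower for 3 (15%). Paraxial mesoderm was called higher than brain for 6 genes (14.4%) and lower for Thy1 (12.7%), and higher than liver for 5 (16.7%) and lower for Lum and Fn1 (11%). Between paraxial mesoderm and skeletal muscle 2 genes were called higher in the culture, Bgn and Fn1 (15.4% of all genes), and 2 lower, Dcn and Lum (11.2%), with the remaining 5 within the 2-fold rule. Ectoderm was lower than skeletal muscle for 6 of the 9 (12% of all genes) and higher for Bgn and Fn1 (15.7%).

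The genes closest to each matrix gene over the 7 arrays were not, in most cases, matrix genes. By the Pearson correlation of log2 signals, given without a test, the closest to Dcn was Maf at 0.982, a transcription factor, and the closest to Bgn was Phldb2 at 0.962. P4ha2 at 0.979 came after the Wnt receptor gene Fzd4 at 0.986 for Postn, and Cd34 at 0.976 was closest to Sparc. Cyb5r3 at 0.981 was closest to Fn1, Csrp3 to Lum and Tnik to Thy1. For Lum and Thy1, with 5 arrays at background, the values rest on the 2 arrays above it.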

How the data were processed

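The authors hybridized RNA from 7 samples, 1 array each, to Affymetrix whole-genome mouse expression arrays. The authors deposited a linear intensity for each of 45101 probe sets and had scaled every array to the same average, 100. How probes were summarised is not given in the sources used. The mean without the outer 2% of probe sets at each end was 100.0 in every array, and between 7813 and 9083 genes were above background. The number of arrays limits the precision.

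The platform annotation gave 34958 probe sets 1 symbol, 932 several and 9211 none, and 34754 of the first kind matched RefSeq genes of GRCm38.p6 by Entrez identifier. Each gene took the single-symbol probe set whose mean log2 signal was highest, after signals under 1 were raised to 1. The 9 measured genes had 17 such probe sets, and 5 genes had more than 1. Background was set to 50 and calls to 2-fold. Genes of each list were named by the largest called ratios, up to 4 in paraxial mesoderm and 2 in ectoderm, with those called lower in paraxial mesoderm and up to 2 brightest in all arrays. Myocd, Fbn2, Ltbp4 in the other layers, Pdgfrb, Sparcl1 and the mature smooth muscle genes were named with their values known. Genes were named for likeness by the Pearson correlation of log2 signals, raised to background, over genes with a range of at least 4-fold.

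The genes and lists were chosen with earlier results of these data known. The calls were checked on simulated data, with changes planted only in genes well above background. That check does not cover changes near background or the spread between real samples. Alternatives were a background of 20, quantile normalization, a common median, the geometric mean of probe sets and a 3-fold rule. A further one left out probe sets marked as shared, here all with the suffix s, x or a, which left 16593 genes. Suffix a marks several transcripts of 1 gene, so sets not shared between genes were dropped too. Python 3.11.15 with numpy 2.4.6, pandas 2.3.3 and matplotlib 3.10.9 was used.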

Additional observations from a re-analysis of the deposited data

Results flagged for a closer look

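Acta2 and Tagln moved against ES cells in opposite directions in 2 layers. Both were higher in paraxial mesoderm, at 7.01 and 3.21 times ES cells, and lower in endoderm, where ES cells were 2.03 times brighter for Acta2 and 2.66 times for Tagln. The difference between the layers was not tested, since there is 1 array for each. The value for Acta2 in endoderm lies at the edge of the 2-fold rule.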

How the results depend on the processing

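No paired analysis was possible because each condition has 1 array. Quantile normalization and a common median left all counts over the 9 genes within 1.5 times, and no called ratio changed direction under any alternative. Under quantile normalization Dcn was also called higher in paraxial mesoderm than in ectoderm. With the geometric mean of probe sets Sparc was no longer called higher in that comparison, which left 5 genes (6 before). A background of 20 put 9 genes above background in brain in place of 5. With the geometric mean of probe sets, which brings in dim probe sets, 1 gene was called higher in ectoderm than in ES cells (2 before), 1 lower in endoderm (2 before), where Bgn took the place of Dcn as the 1 called higher, 1 higher in ectoderm than in endoderm (3 before), and 3 were above background in brain (5 before). Without shared probe sets Acta2 fell to a probe set under background and lost its calls, which left 1 gene lower in endoderm than in ES cells (2 before) and 1 brightest in paraxial mesoderm of all arrays (2 before). With a 3-fold rule 0 genes were called higher (1 before) and 0 lower (2 before) in endoderm than in ES cells, and 1 higher in ectoderm than in endoderm (3 before). Of 54 ratios of single genes, 12 moved by over 1.5 times with a background of 20, 10 with the geometric mean and 5 without shared probe sets. Among those moved with the geometric mean were Dcn and Acta2 in paraxial mesoderm against ES cells, where both ratios were lower bounds. With a common median, the median log2 ratio of all expressed genes in paraxial mesoderm to ES cells moved from 0.04 to -0.21, and in ectoderm to ES cells from 0.06 to -0.17. The share of called genes that were higher fell from 59.8% to 43.1% and from 57.6% to 41.6% in these comparisons. Against endoderm the medians moved from 0.01 to -0.18 and the share from 60.5% to 47.9% for paraxial mesoderm, and from 0.05 to -0.13 and from 51.6% to 40.2% for ectoderm. Over all genes, those called higher in paraxial mesoderm than in ES cells were 1228, against 1851 with a background of 20, 783 with the geometric mean and 559 with the 3-fold rule.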
